A study of Mus musculus with 7 samples.

Results

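Genes typical of macrophages at the borders of the brain, 9 in all (Mrc1, Lyve1, Cd163, Pf4, F13a1, Ms4a7, Cbr2, Folr2 and Stab1) were followed in brain vascular fragments after PDGF-CC. They were taken by symbol from the platform annotation of the arrays, and all 9 of 9 had a probe set that named that gene and no other. Each had exactly 1 such probe set, and the series held 22180 genes named in this way. Fragments came from the brains of adult female mice, labelled C57BL/6 in the sample labels and C57BL/6N, 12 weeks old, in the series text. One group of 4 arrays came from animals given PDGF-CC, platelet-derived growth factor CC, by intracerebroventricular (ICV) injection, and the other group of 3 arrays from animals given phosphate-buffered saline (PBS) by the same route. RNA was taken 4 h after injection. No uninjected animals are among the samples used here, so both groups carry the injection itself. How the fragments were isolated, and whether each array stands for 1 mouse, is not given in the sources used here, so p-values reflect only how much these samples differ among themselves, and part of that spread may be technical.

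Border-associated macrophages live in the perivascular space, the meninges and the choroid plexus, outside the brain parenchyma that microglia occupy. They sit against vessels, take up material from the cerebrospinal and interstitial fluid through scavenger and lectin receptors, and are known by the mannose receptor gene Mrc1 and the hyaluronan receptor gene Lyve1. PDGF-CC acts mainly through the receptor PDGFR-alpha, which in the brain is best known from oligodendrocyte precursors and perivascular fibroblasts. Vascular fragments are bulk samples, in which fewer cells of a type and less RNA per cell cannot be told apart. Values below are log2 values of a probe set, and a level is compared only between arrays, never between genes.

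The sequence before a gene's start is where lineage factors of macrophages can bind, and it is shown here for 3 genes that recur below: Mrc1, the defining marker, and Ms4a7 and Pf4, the genes with the smallest p among the 9, which leaned opposite ways. Sequences are 250 bases upstream of the start, 5′ to 3′ on the strand of the gene, from RefSeq on GRCm38.p6. Capitals mark letters of the PU.1 motif GAGGAA, which reads as TTCCTC on the opposite strand. They also mark AGAACA, a short part of the glucocorticoid receptor element, which reads as TGTTCT there. PU.1 is the transcription factor on which macrophages depend. Mrc1 lies at chr2:14229164-14229413 on the plus strand, Pf4 at chr5:90772185-90772434 on the plus strand, and Ms4a7 has annotated starts with windows at chr19:11336147-11336396 and, further inside the gene, chr19:11334696-11334945, both on the minus strand.
Mrc1: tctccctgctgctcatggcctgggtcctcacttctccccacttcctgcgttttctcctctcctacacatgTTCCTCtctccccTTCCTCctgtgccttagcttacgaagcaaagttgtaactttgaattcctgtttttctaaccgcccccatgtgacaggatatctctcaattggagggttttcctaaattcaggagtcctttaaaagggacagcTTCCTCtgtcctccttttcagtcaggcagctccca
Pf4: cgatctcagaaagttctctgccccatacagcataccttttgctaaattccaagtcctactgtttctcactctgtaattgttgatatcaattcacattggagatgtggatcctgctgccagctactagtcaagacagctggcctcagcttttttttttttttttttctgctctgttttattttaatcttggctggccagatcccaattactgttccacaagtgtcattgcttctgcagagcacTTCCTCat
Ms4a7, outer start: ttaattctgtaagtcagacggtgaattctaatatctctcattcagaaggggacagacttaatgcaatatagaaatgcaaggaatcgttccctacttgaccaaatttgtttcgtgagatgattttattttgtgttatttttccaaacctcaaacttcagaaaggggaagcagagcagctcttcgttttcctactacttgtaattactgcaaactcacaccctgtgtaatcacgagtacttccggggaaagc
Ms4a7, inner start: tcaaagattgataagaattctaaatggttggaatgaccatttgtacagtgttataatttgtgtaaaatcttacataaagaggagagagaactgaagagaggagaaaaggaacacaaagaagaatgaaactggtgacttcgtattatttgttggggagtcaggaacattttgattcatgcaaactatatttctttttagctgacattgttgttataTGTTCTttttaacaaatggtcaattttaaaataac
Mrc1 held the PU.1 letters 3 times, all on the other strand, and Pf4 held them once, next to its start. In all, 8 of the 9 genes had an entry (Lyve1 had none), with 11 windows between them. The PU.1 letters stood in 5 of the 11 windows (Mrc1, Pf4, F13a1, Cbr2 and Stab1), against 23.3% of all 32851 windows of this length. AGAACA stood in 3 of the 11 (Cd163, Folr2 and the inner start of Ms4a7), against 16.1%. TGCTGAC, a part of the MAF element, stood in 0, against 3.81%. These are matches of letters on both strands, and no printed window holds more than 1 of the 3 motifs.

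None of the 9 genes passed the test between PDGF-CC and PBS. Of the 17734 probe sets tested, limma called 0 (0%) at an adjusted p under 0.05, and 0 of the 9 genes. At an unadjusted p under 0.05 there was 1 of the 9, Ms4a7, which was higher; 6.04% of all probe sets were at that level, 2.63% higher and 3.41% lower. In sign, 6 genes were above 0 and 3 below, with a median of +0.04, where 48.7% of the 15582 tested genes were above 0 and their median was -0.003. All 9 were above the filter on dim probe sets (a mean log2 value of 4.145), so none was left out. The 95% confidence intervals of all 9 lay within 1 log2 unit of 0, that is, within a 2-fold difference in either direction. Of these intervals, 8 held 0.

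**Figure D1:**
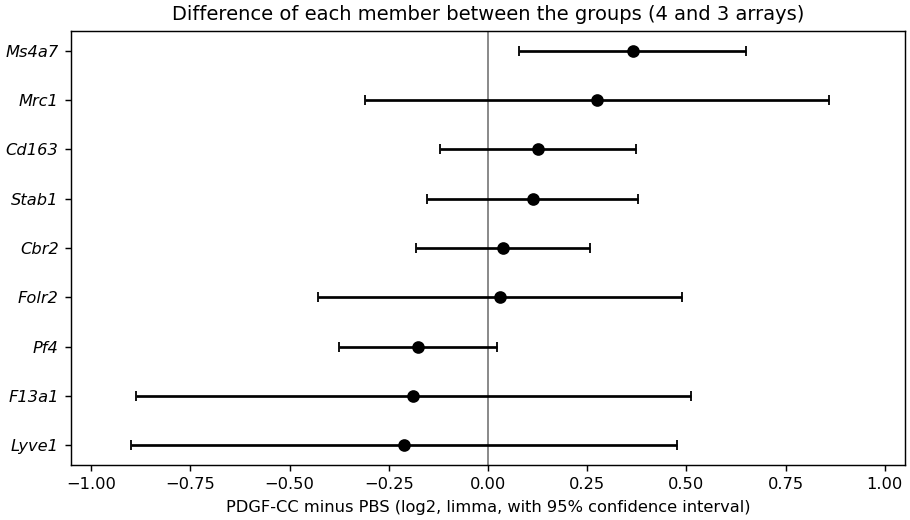
Difference between PDGF-CC (4 arrays) and PBS (3 arrays) for each of the 9 genes on the log2 scale (x axis), with bars for the 95% confidence interval from limma. Only the interval of Ms4a7, from 0.08 to 0.65, does not hold 0, and its adjusted p was 0.769; the intervals of Lyve1 and F13a1 are the widest.

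Among the receptors that define these cells, Mrc1, which encodes the endocytic lectin CD206, stood at 7.52, 7.91, 8.55 and 7.87 in PDGF-CC arrays 1 to 4 and at 7.87, 7.83 and 7.36 in PBS arrays 1 to 3. PDGF-CC array 3 was the highest and PBS array 3 the lowest, while PDGF-CC array 1 lay below PBS arrays 1 and 2, so the groups overlapped. The difference was +0.28 ± 0.25 (log2, SE, n = 4 and 3; adjusted p = 0.799, 95% interval -0.31 to 0.86). Without PDGF-CC array 3 it was +0.08, and without PDGF-CC array 1 it was +0.42.

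Lyve1, the hyaluronan receptor that perivascular macrophages share with lymphatic endothelium, stood at 6.34, 7.29, 7.67 and 7.29 after PDGF-CC and at 7.29, 7.52 and 7.27 after PBS. One array, PDGF-CC array 1, lay far below the other 6, whose values spanned 7.27 to 7.67. The difference was -0.21 ± 0.29 (adjusted p = 0.859, interval -0.90 to 0.48), and +0.06 without PDGF-CC array 1. Of 6 measured lymphatic markers, Prox1, which sets lymphatic identity, and Reln did not pass the filter on dim probe sets, and 4 did. Of these Flt4, which blood vessels can also express, was at -0.02 ± 0.064 and Pdpn at -0.33 ± 0.21 (adjusted p = 0.770). Means of the 6 ranged from 5.10 to 5.25 after PDGF-CC and from 5.09 to 5.20 after PBS. The highest was PDGF-CC array 3 (5.25), which was also highest in Lyve1, while array 1 was at 5.11; the part of these markers in Lyve1 was not tested.

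Cd163, the scavenger receptor for haemoglobin bound to haptoglobin and a gene known to respond to glucocorticoids, was at 5.57, 5.82, 5.83 and 5.44 after PDGF-CC. In the PBS arrays it lay between 5.52 and 5.57. The PDGF-CC arrays reached both above and below the PBS range, with a difference of +0.13 ± 0.11 (adjusted p = 0.788). It was +0.071 without PDGF-CC array 3, +0.075 without array 2 and +0.20 without array 4 of that group. Of 9 genes linked to glucocorticoids in the same arrays, among them the receptor gene Nr3c1 (-0.03), 8 were negative, with a median of -0.89. At an adjusted p under 0.05, 0 passed, but 7 were at an unadjusted p under 0.05, against 6.04% of all probe sets. In 6 of them every PDGF-CC array lay below every PBS array, against 2.5% of all probe sets. Smallest in p were Cdkn1a, at -1.07 ± 0.093 (adjusted p = 0.0549), and Ddit4, at -1.37 ± 0.26 (adjusted p = 0.722). The part of these genes in Cd163 was not tested. Stab1, which encodes the clearance receptor stabilin-1, was at 7.76, 7.76, 7.76 and 7.77 after PDGF-CC and at 7.83, 7.35 and 7.76 after PBS. PBS array 2 was low and the other 6 arrays nearly equal. The difference was +0.11 ± 0.11 (adjusted p = 0.815), and -0.03 without PBS array 2. Stab1 held exactly the same value, to 6 decimals, in 4 of the 7 arrays, as 17.3% of the tested probe sets did in 4 or more, and the spread of 0.0091 (SD) in the PDGF-CC group rests on such equal values.

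Folr2, the folate receptor beta of resident macrophages, stood at 5.03, 5.51, 5.91 and 5.65 after PDGF-CC and at 5.37, 5.58 and 5.53 after PBS. As with Lyve1, PDGF-CC array 1 was the lowest and array 3 the highest, with the PBS arrays between them. The difference was +0.03 ± 0.19 (adjusted p = 0.972). Its paralogue Folr1, carried by choroid plexus epithelium, was at -0.48 ± 0.18 (adjusted p = 0.769), with all PDGF-CC arrays below all PBS arrays. Each of these folate receptor genes had a probe set that named it alone.

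**Figure D2:**
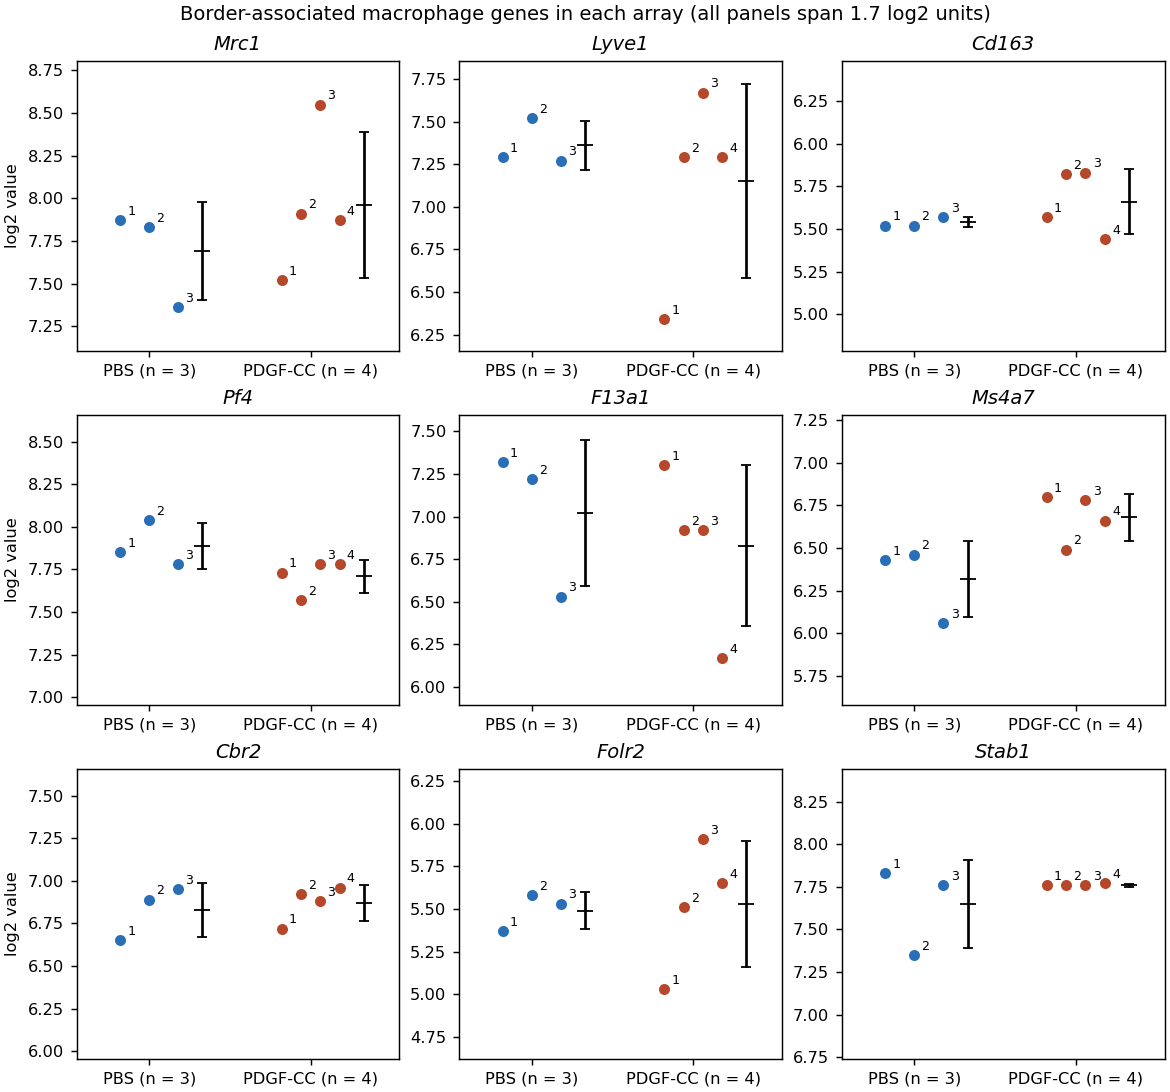
Log2 value of each of the 9 genes in each array (points, numbered by replicate), with the group mean and SD as a black bar; every panel spans the same height in log2 units, placed on the gene's own range. Ms4a7 is the one gene in which every PDGF-CC array (lowest 6.49) lies above every PBS array (highest 6.46); Lyve1 and Folr2 are lowest in PDGF-CC array 1.

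Ms4a7, a membrane-spanning protein of the MS4A family found in border macrophages and scarce in resting microglia, was the gene with the clearest separation. It stood at 6.80, 6.49, 6.78 and 6.66 after PDGF-CC and at 6.43, 6.46 and 6.06 after PBS. Every PDGF-CC array was above every PBS array, but PDGF-CC array 2 exceeded PBS array 2 by little. The difference was +0.37 ± 0.12, a 1.29-fold higher level with an interval of 1.06 to 1.57, and its adjusted p was 0.769. It was +0.24 without PBS array 3 and +0.44 without PBS array 2. Of the 9 genes this was the 1 whose groups did not overlap, where 1.8% of all tested probe sets did so in this direction and 2.5% in the other.

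The secreted and enzymatic products leaned less than Ms4a7 did. Pf4, the chemokine CXCL4 that platelets store and border macrophages transcribe, was at 7.73, 7.57, 7.78 and 7.78 after PDGF-CC and at 7.85, 8.04 and 7.78 after PBS. Its groups met at a single value, which PDGF-CC arrays 3 and 4 and PBS array 3 held to 6 decimals. The difference was -0.18 ± 0.084 (unadjusted p = 0.0750, adjusted p = 0.769), and -0.10 without PBS array 2. Cbr2, a carbonyl reductase, stood between 6.72 and 6.96 after PDGF-CC and between 6.65 and 6.95 after PBS, nearly the same range, with a difference of +0.04 ± 0.093 (adjusted p = 0.928).

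F13a1, the catalytic subunit of coagulation factor XIII, which monocytes and platelets carry as well, was at 7.30, 6.92, 6.92 and 6.17 after PDGF-CC and at 7.32, 7.22 and 6.53 after PBS. High and low arrays occurred in both groups, and the difference was -0.19 ± 0.30 (adjusted p = 0.877). Its low arrays were PDGF-CC array 4 and PBS array 3, which were also the lowest in the mean of 14 monocyte and neutrophil markers, at 5.49 and 5.80 against 6.13 to 6.72 in the other arrays. Across that list 10 of 11 tested genes were negative, and 3 (Ly6g, Ngp and Camp) were dim. The difference of the list mean was -0.21. Leaving out single arrays, compared after seeing the data, moved it between -0.48 (without PBS array 3) and +0.01 (without PDGF-CC array 4). The part of these markers in F13a1 was not tested. Of 8 measured platelet markers, Gp6, Tubb1 and Clec1b were dim. Among the others Ppbp was at -0.39 ± 0.68 and Gp9 at +0.37 ± 0.14 (adjusted p = 0.769), and of the 5 platelet genes tested 2 were positive and 3 negative.

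Within the groups, 4 of the 9 genes varied between arrays more than nearly all other genes did. The SD within groups of F13a1 (0.456), Lyve1 (0.449), Mrc1 (0.379) and Folr2 (0.295) was larger than that of 98.4%, 98.3%, 97.3% and 93.6% of the tested genes in that order. The median over the tested genes was 0.127. Pf4, at 0.114, was the only one of the 9 below that median, and the others lay between it and 0.177 (Cbr2, Cd163, Stab1 and Ms4a7). The spread set the precision, with an interval of -0.90 to 0.48 for Lyve1 against one of -0.38 to 0.02 for Pf4.

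The arrays that were high or low differed from gene to gene. PDGF-CC array 3 held the highest value of 4 genes (Mrc1, Lyve1, Cd163 and Folr2) and was above the gene's own mean in 8 of 9, by 0.23 on average. PDGF-CC array 1 was lowest for Lyve1 and Folr2, at -0.90 and -0.49 from their means, yet highest for Ms4a7 and high for F13a1. Mean deviations over the 9 genes were -0.14, +0.02, +0.23 and -0.04 in PDGF-CC arrays 1 to 4 and +0.02, +0.05 and -0.13 in PBS arrays 1 to 3. The highest and the lowest mean were both in PDGF-CC arrays, and the PBS arrays lay between them.

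**Figure D3:**
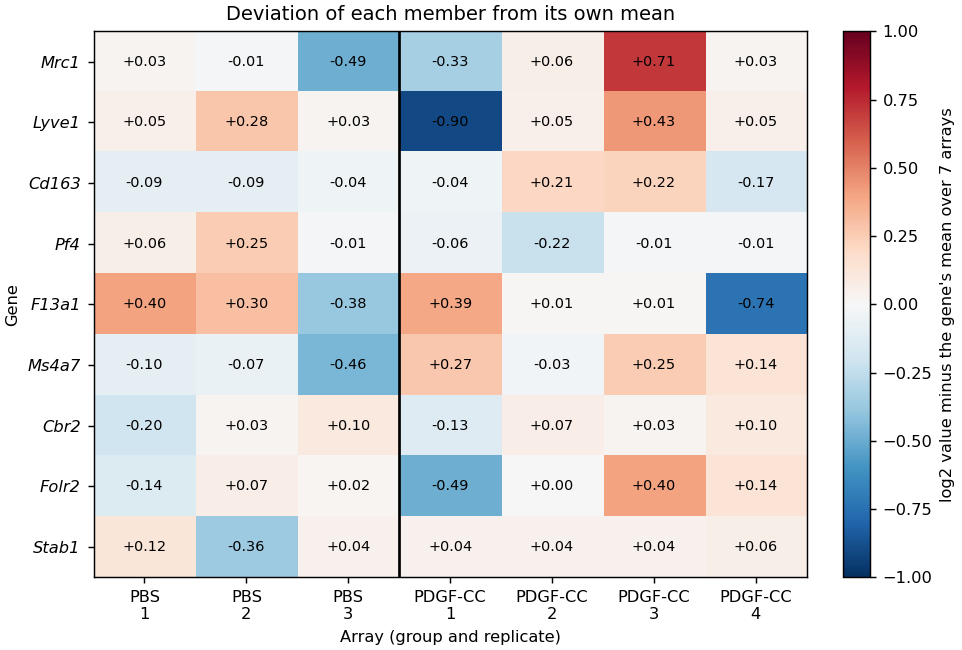
Log2 value of each gene minus its mean over the 7 arrays (colour and printed number), for PBS arrays 1 to 3 and PDGF-CC arrays 1 to 4. Mrc1, Lyve1 and Folr2 share their low array 1 and high array 3 of the PDGF-CC group, while F13a1 and Stab1 have other patterns.

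Sample descriptions number the arrays from 1 to 7 over both groups, without saying what the numbers stand for. Numbers 1 to 4 hold PDGF-CC arrays 1 and 2 and PBS arrays 1 and 2, and numbers 5 to 7 hold PDGF-CC arrays 3 and 4 and PBS array 3. Within 1 to 4, Mrc1 was at -0.14, Lyve1 at -0.59 and Folr2 at -0.21, whereas within 5 to 7 they were at +0.86, +0.21 and +0.25. All 3 thus leaned opposite ways in the 2 runs of numbers, the second of which has 1 PBS array. F13a1, at -0.15 and +0.02, and Cbr2, at +0.05 and -0.04, changed sign as well. Ms4a7 was above 0 in both, at +0.20 and +0.66, as were Cd163, at +0.17 and +0.06, and Stab1, at +0.16 and +0.009. Pf4 was at -0.30 within 1 to 4 and at 0.00 within 5 to 7, and the mean of all 9 genes was at -0.09 and +0.23.

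Microglial and pan-macrophage markers mostly had positive values. Of 14 microglial markers, 13 were positive with a median of +0.33, and of 16 genes common to macrophages all 16 were, with a median of +0.22; in both lists 0 genes passed at an adjusted p under 0.05. Cx3cr1 was at +0.53 ± 0.18 and P2ry12, the purinergic receptor of resting microglia, at +0.32 ± 0.096. Microglial list means ranged from 9.16 to 9.23 after PDGF-CC and from 8.55 to 9.09 after PBS, and the lowest was PBS array 2. Without that array, in a comparison added after seeing the data, the difference of the microglial mean fell from +0.29 to +0.12 and that of the pan-macrophage mean from +0.20 to +0.077. PBS array 2 was not low in the mean of the 9 genes, where it stood at 6.94 in a range of 6.75 to 7.12 over all arrays. Singly, Stab1 was lowest in that array (7.35) and Pf4 highest (8.04). The difference between these lists was not tested.

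**Figure D4:**
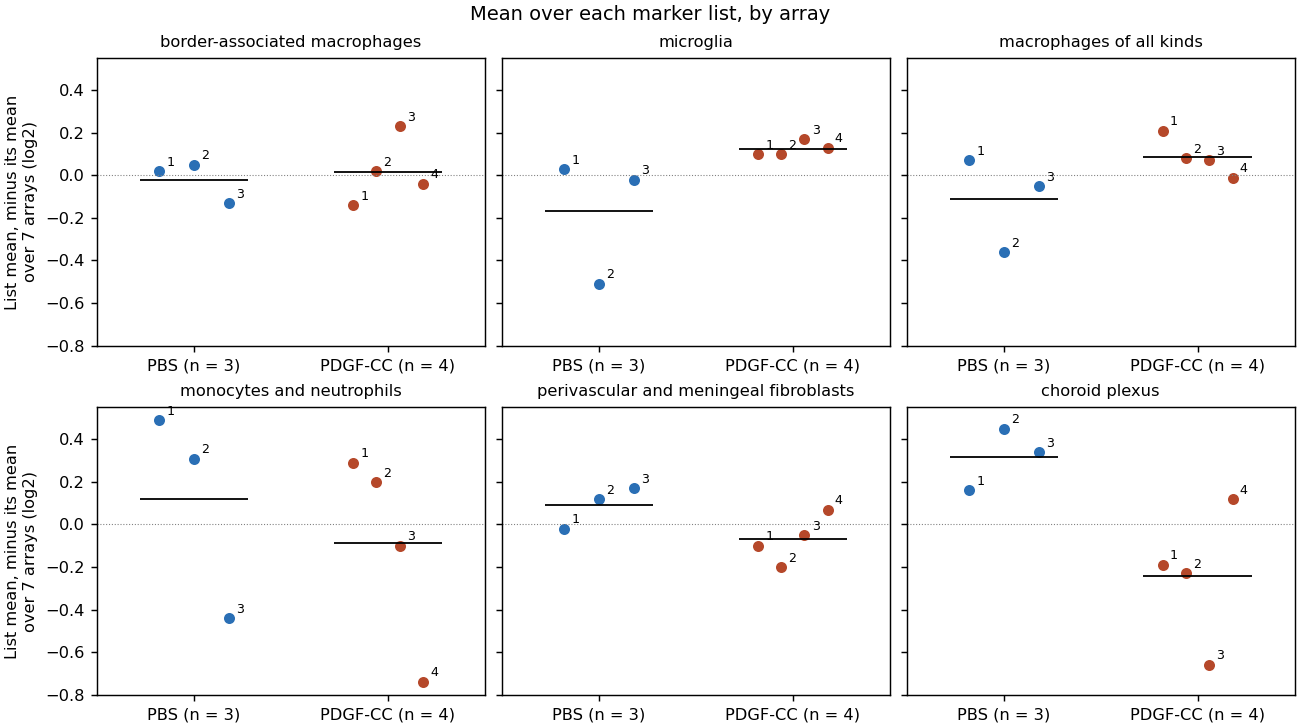
Mean over each of 6 marker lists in each array, minus the mean of that list over the 7 arrays (log2; points numbered by replicate, black lines for group means). PBS array 2 is low in microglia (8.55) and in macrophages of all kinds (9.15) but not in border-associated macrophages (6.94), and the choroid plexus means after PDGF-CC (6.08 to 6.86) lie under those after PBS (6.90 to 7.19), with 0 of 9 markers past the test.

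Markers of the tissues in which border macrophages lie were read beside the 9 genes. Choroid plexus markers were negative in 8 of 9, with a median of -0.65, and 0 passed; their means ranged from 6.08 to 6.86 after PDGF-CC and from 6.90 to 7.19 after PBS. PDGF-CC array 3, highest in Mrc1, Lyve1 and Folr2, was the lowest in choroid plexus markers. Markers of perivascular and meningeal fibroblasts were negative in 9 of 10, with a median of -0.09; Dcn, a matrix proteoglycan of these cells, was at -0.47 ± 0.14 (adjusted p = 0.769). Brain endothelial markers, which define the tissue, all passed the filter (12 of 12), and their means of 10.68 to 10.85 after PDGF-CC overlapped those of 10.69 to 10.91 after PBS, with a median difference of -0.04. What part these cell types have in the 9 genes was not tested.

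Further genes of border macrophages were spread around 0 as well. Of 25 further genes, 23 had a probe set and 19 passed the filter, of which 8 were positive and 11 negative, with a median of -0.04 and 0 called. The 4 dim genes were Clec10a, Cd209b, Cd209d and Cd5l. Smallest in unadjusted p were the transcription factor gene Maf, at +0.54 ± 0.24, and Siglec1, the sialic acid receptor CD169, at -0.17 ± 0.084 (both adjusted p = 0.769). Both had overlapping groups. Hpgd, at +0.40 ± 0.20 (adjusted p = 0.769), was the 1 gene of the list with every PDGF-CC array above every PBS array. Of all tested probe sets 1.8% were so, and 0 genes of the list had the reverse. Maf is also expressed by microglia. Scavenger and lectin receptors beyond the 9 were 10 positive and 7 negative of 17 tested, with a median of +0.01; Mertk, which clears apoptotic cells, was at +0.20 ± 0.089.

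Growth factors and lineage factors that sustain macrophages were mostly above 0, at 14 of 18 with a median of +0.22 and 0 called. Their list mean was lowest in PBS array 2 (7.54), as for microglia. Without that array, again compared after seeing the data, its difference fell from +0.18 to +0.11. Csf1, the ligand on which macrophages depend, was at +0.37 ± 0.10 with all PDGF-CC arrays above all PBS arrays. Its receptor gene Csf1r was at +0.27 ± 0.15, and Irf8, a transcription factor of the lineage, at +0.80 ± 0.24 with overlapping groups. All 3 had an adjusted p of 0.769. Spi1, which encodes PU.1, was at +0.36 ± 0.13 (adjusted p = 0.769). Csf1r, Irf8 and Spi1 are expressed by microglia as well, whose markers leaned the same way.

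Programmes linked to macrophages that carry CD206 and CD163 had values on both sides of 0. Genes of the response to interleukin-4 and interleukin-10 were 7 positive and 9 negative of 16, with a median of -0.03. Il10ra was at +0.24 ± 0.12 and Trem2, which is also among the microglial markers above, at +0.30 ± 0.097. The largest difference in the list was negative, that of Ccl17, at -0.99 ± 0.56 (adjusted p = 0.769). Class II histocompatibility genes, which mark the antigen-presenting subset of border macrophages, were 2 positive and 3 negative, with H2-Aa at -0.28 ± 0.27 and Ciita at +0.19 ± 0.13. Haem handling, which follows uptake by CD163, was 4 positive and 5 negative with a median of -0.01, and Hmox1, the inducible haem oxygenase, was at -0.23 ± 0.26. Folate uptake genes were 2 positive and 2 negative; Slc46a1, the proton-coupled folate transporter, was at +0.16 ± 0.083. Dendritic cell markers were 4 positive and 3 negative, with Cd209a at -0.38 ± 0.12 and Batf3 at +0.45 ± 0.16. In each of these lists 0 genes passed at an adjusted p under 0.05, against 0% of all probe sets.

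Genes whose pattern over the 7 arrays was most like the mean standardised pattern of the 9 were Cep152, Tulp2, Phlpp1, Tcte1 and Srsf10, with root-mean-square differences of 0.553 to 0.564 SD. All of these but Cep152 varied little and repeated a rounded value over several arrays, with Phlpp1 between 8.07 and 8.23. Standardised values give such small differences the same weight as larger ones. Mrc1 itself was at 0.569 from that mean pattern and Stab1, the farthest of the 9, at 1.03, where the median of 15556 compared genes was 0.997. Folr2 (0.642), Lyve1 (0.687) and Cd163 (0.744) followed Mrc1, and F13a1 (1.01) lay beyond that median with Stab1. Each of the 9 is part of the mean it is set against, and no test was made.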

How the data were processed

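The deposited table holds log2 values of 33793 probe sets in 7 arrays. Amplification of whole transcripts started from 10 ng of total RNA, with biotin labelling, per the labels' protocols. The submitters' processing notes list Affymetrix Expression Console, RMA and limma but no versions; RMA makes the distributions of arrays equal, which removes differences in overall RNA level. The log2 scale was read from the deposited values, which carry no read depth, so the number of arrays limits the precision. The authors' genome build is not given in the sources used here.

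Of the probe sets, 23521 had 1 symbol in the platform annotation, 1814 had several and 8458 had none. Testing covered the 17734 probe sets with a symbol whose mean exceeded 4.145, the 30th percentile among those with a symbol. The contrast of PDGF-CC minus PBS used limma 3.58.1 (lmFit, eBayes; R 4.3.3), 2-sided, without covariates, with Benjamini-Hochberg adjustment over all of them and a threshold of 0.05. A gene with several probe sets was represented by the brightest. The 9 genes and the 18 lists were chosen with earlier results of these data known. Of 226 list entries, 212 had a probe set, matched by symbol or through RefSeq gene IDs of GRCm38.p6. Some genes stand in several lists, so the counts of different lists are not independent. Named were all 9 genes, the 3 brightest genes and the 2 with the smallest p of each list (of these, mostly the latter are given), and the 5 genes most alike in pattern. Genes named as dim or as counterexamples in a count, and Csf1r, Ccl17 and Hpgd, were named after their values were seen. The fit was checked on simulated data. Array numbers in the text are those of the sample titles. These numbers are not stated to pair the samples, so the contrast did not pair them. Same-numbered arrays deviated together with correlations of 0.163, 0.107 and 0.0844 over probe sets. Each was the highest of that PDGF-CC array with any PBS array, so a pairing is not excluded. The largest correlation of all was 0.32, between PDGF-CC array 4 and PBS array 3. A fit with the replicate number as a block is given below. Alternatives varied the filter, prior, normalization, weights, covariates and arrays. Figures were drawn with matplotlib 3.10.9.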

Additional observations from a re-analysis of the deposited data

Results flagged for a closer look

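Among the PDGF-CC arrays, 27 sets of 4 values were searched for an array far from the other 3, and 3 were found. These sets were the 9 genes and the means of 18 lists. The rule flags about 1 in 20 by chance where sets are independent and hold no equal values. Here the 9 genes also form 1 of the lists, and 37.4% of tested probe sets share a value in 3 or more of the 7 arrays. The number found therefore cannot be set against that rate. Stab1 was at 7.77 in PDGF-CC array 4 while the other 3 arrays held the same value of 7.76, so the gap is small and stands out because of equal values. The mean of the further border-associated macrophage genes was 6.40 in PDGF-CC array 4, against 6.51 to 6.54 in the other 3. The mean of lymphatic endothelial markers was 5.25 in PDGF-CC array 3, against 5.10 to 5.11 in the others.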

How the results depend on the processing

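In 16 alternatives none of the 9 genes passed at an adjusted p under 0.05. Mrc1, Cd163, Pf4 and Ms4a7 kept their direction in all 16, Ms4a7 between +0.24 and +0.44 with adjusted p from 0.522 to 0.846. The median over the 9 genes ran from -0.029 to +0.12 and moved by less than the SD of 0.0920 between arrays of a group. Leaving out single arrays turned signs. Lyve1 ran from -0.39 to +0.057 (without PDGF-CC array 1), Stab1 from -0.034 (without PBS array 2) to +0.21, Cbr2 from -0.051 (without PBS array 1) to +0.099, and F13a1 from -0.43 to +0.031 (without PDGF-CC array 4). Folr2 ran from -0.096 (without PDGF-CC array 3) to +0.20, turning also without PDGF-CC array 4 (-0.011) and PBS array 1 (-0.029), and was at -0.023 with numbers 1 to 4 against 5 to 7 as a block. With the replicate number as a block, which leaves PDGF-CC array 4 without a partner, F13a1 was at +0.031 and Folr2 at -0.011; this block changed no call. Over all probe sets limma called 0 (1071 at an unadjusted p under 0.05), but 3 with a trended and robust prior, 3 with only the brighter probe sets above the 50th percentile, 3 with arrays centred on their median, 1 with quantile normalization repeated, and from 0 to 1 when leaving out arrays (1 without PDGF-CC array 3). Averaging the probe sets of a gene was not run, since each of the 9 has 1. Causes were not tested. With 4 and 3 arrays, intervals remain as wide as those given for Lyve1 and F13a1.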
